A study of Mus musculus with 605 samples.

Results

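The genes described here encode the proteins of the cytosolic ribosome, and they were followed through 566 single cells of mouse dorsal skin. Members were the protein-coding genes whose symbol starts with Rpl or Rps and a number or with Rplp and a number, together with Rpsa. The Rps6 kinase genes (10 names starting with Rps6k) and 17 names of the form Rpl9-ps6, which mark copies of the genes, were left out. This gave 86 of the 30959 gene symbols in the deposited tables, 52 of the large subunit and its stalk and 34 of the small subunit. The name rule also takes Rps19bp1, which encodes a binding protein of Rps19, Rpl7l1, a relative of Rpl7, and Rps27rt, a retrogene copy of Rps27.

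The groups were bulge stem cells of wild-type mice at postnatal day 30 (WT P30, 84 cells kept of 91) and postnatal day 56 (WT P56, 83 of 92), bulge stem cells of mutant mice at P56 (Mut P56, 89 of 94), melanocytes of WT (81 of 85) and mutant mice (84 of 88) at P56, and myeloid cells of WT (73 of 78) and mutant mice (72 of 77) at P56. The mutant carries Nras Q61K, a constantly active form of a growth-signalling GTPase, under the tyrosinase (Tyr) enhancer and promoter, which drives it in melanocytes and gives the mice nevi; the bulge and myeloid cells of these mice are therefore neighbours of the cells in which the transgene is driven. The study sorted bulge cells of K14-H2B-GFP mice as GFP+, CD34+ and low for P-cadherin where it introduces its bulk profiles, and whether the single cells had the same sort is not given in the methods. WT dorsal follicles are in anagen, the growth phase, at P30 and in telogen, the resting phase, at P56, whereas mutant skin at P56 holds follicles of both phases. Because no animal is named for any cell, the 7 groups count as 7 samples without replicates. No difference between groups has a test, SDs are over the cells of a group, and an effect of genotype or of age cannot be told apart from that of the capture and library of a group.

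The values are TPM, a length-corrected measure of transcript abundance relative to the cell's total. They hold no read depth, and the depth of a cell is unknown here. The median number of genes above 0 was 3191.5, 4271 and 4425 in WT P30, WT P56 and Mut P56 bulge cells, 2233 and 2873 in WT and mutant melanocytes, and 2946 and 2945 in WT and mutant myeloid cells. The marker set of the labelled lineage had the highest mean of all sets in 82 of 84, 77 of 83 and 88 of 89 bulge cells, in 75 of 81 and 81 of 84 melanocytes, and in 69 of 73 and 64 of 72 myeloid cells. T or NK cell genes led in 4 WT and 7 mutant myeloid cells.

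A ribosome is built from ribosomal RNA and one copy of nearly every ribosomal protein, so these genes are usually expressed together and at high level. The large subunit forms the peptide bonds, the small subunit reads the messenger RNA, and the stalk, made of Rplp0, Rplp1 and Rplp2, recruits elongation factors. Their messenger RNAs start with a C and a run of pyrimidines, the terminal oligopyrimidine tract, through which growth signalling by mTORC1 sets how well they are translated. In hair follicle stem cells, the rate of protein synthesis is known to be low in the resting phase and higher when the cells are active, but the level of a messenger RNA does not give the rate at which it is translated.

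The sequences around the annotated transcription start of a few members are shown for their runs of C and T and, further on, for what a member and its copy share. Each line below gives 15 bases before the annotated start and 15 from it on, on the gene's own strand, from RefSeq (GRCm38.p6). The capitals mark the longest run of C and T in the window for Rps18 and Rpl15, which are ordinary members, and for Rps2, Rps27l and Rpl22l1, which depart from the others in the results. In Rps27l the marked run lies wholly before the annotated start, and in Rps2 it begins after it.
Rps18, chr17:33955651-33955680, minus strand: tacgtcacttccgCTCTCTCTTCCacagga
Rpl15, chr14:18270972-18271001, minus strand: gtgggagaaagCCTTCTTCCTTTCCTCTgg
Rps2, chr17:24720048-24720077, plus strand: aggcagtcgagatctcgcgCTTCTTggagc
Rps27l, chr9:66946071-66946100, plus strand: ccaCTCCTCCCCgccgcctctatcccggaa
Rpl22l1, chr3:28805493-28805522, plus strand: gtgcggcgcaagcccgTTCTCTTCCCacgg
Within 20 bases of the start, a C followed by at least 5 bases that are each C or T was present in 42 of the 66 members with a sequence (63.6%) and in 32.8% of all 27025 genes of the table. CCGGAAG, the core of ETS family sites such as that of GABP, was present on either strand within 250 bases before to 50 after the start in 26 of the 66 members (39.4%) and in 9.93% of all genes. AAGATGG, found in YY1 sites, was present on either strand in 10 members (15.2%) and in 7.28% of all genes. A match is a description of these letters, not a site.

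Rps27 and its retrogene Rps27rt are shown because they share sequence at the start, with capitals for the longest run that both windows hold.
Rps27, chr3:90213634-90213663, minus strand: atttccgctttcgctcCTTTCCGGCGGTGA
Rps27rt, chr9:114982725-114982754, minus strand: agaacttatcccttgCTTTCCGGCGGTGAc
The shared run begins 1 base later relative to the annotated start in Rps27 than in Rps27rt. Of the 300 different 75-base stretches of Rps27rt transcripts, the length of the study's reads, 271 also occur in Rps27 transcripts (90.3%), so a read from one can be assigned to the other. Copies of this kind are common in the family. In the GENCODE vM21 transcripts, 82 of the 86 members share at least one 75-base stretch with another gene, with a median of 16.6% of a member's stretches shared. By contrast, Rps27l and Rps27, Rpl22l1 and Rpl22, and Rpl36al and Rpl36a share no such stretch, so reads that lie within them are told apart.

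Ribosomal protein genes held the largest share of the transcriptome in resting WT bulge cells and the smallest in mutant melanocytes. The median share of a cell's TPM total was 20.1% in WT P56 bulge cells (lowest 10.7%, highest 33.1%, SD 5.48), 17.4% in Mut P56 bulge cells (10.8% to 25.3%, SD 3.04) and 13.1% in WT P30 bulge cells (2.41% to 20.9%, SD 3.46). It was 11.4% in WT melanocytes (3.05% to 17.3%, SD 2.53) and 9.41% in mutant melanocytes (3.18% to 18.5%, SD 2.98). It was 10.8% in WT myeloid cells (4.79% to 18.3%, SD 2.88) and 12.7% in mutant myeloid cells (6.29% to 22.1%, SD 2.92). Ordered by their medians, the groups were WT P56 bulge, Mut P56 bulge, WT P30 bulge, mutant myeloid, WT melanocyte, WT myeloid and mutant melanocyte cells. The ranges over cells overlapped between all neighbours in this order, and so did the interquartile ranges of all neighbours except those of Mut P56 and WT P30 bulge cells, which met at 15.4%. A share is a proportion, so it does not say how much ribosomal messenger RNA a cell held.

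**Figure D1:**
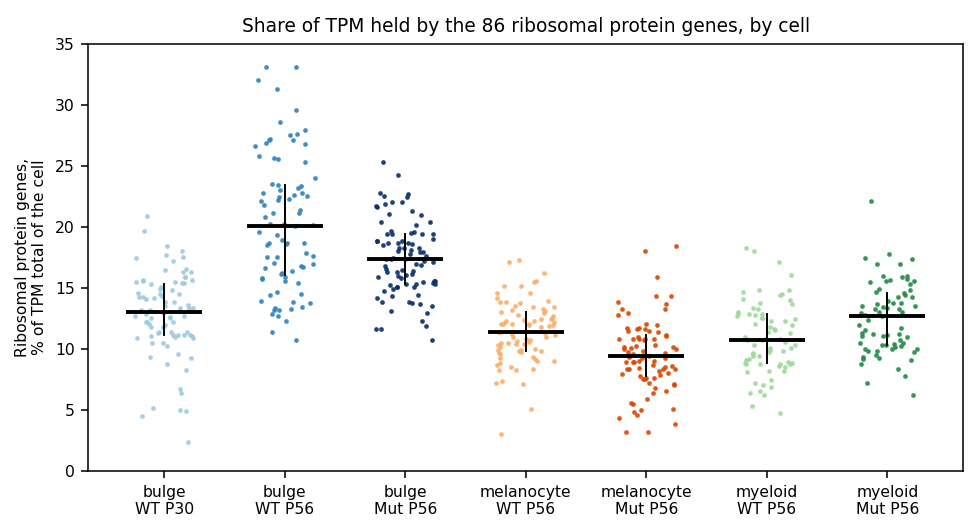
Share of each cell's TPM total held by the 86 ribosomal protein genes (y axis, percent) in the 7 groups (x axis). Each point is 1 cell, the thick bar is the group median and the vertical line spans the quartiles; WT P56 bulge cells have a median of 20.1% and mutant melanocytes of 9.41%, and the clouds of points overlap.

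The balance of the subunits differed between groups. The median over cells of the ratio of summed TPM, of the 52 large subunit and stalk genes to the 34 small subunit genes, was 0.986 in WT P30 bulge cells, 1.11 in WT P56 and 1.09 in Mut P56 bulge cells, 1.13 and 1.20 in WT and mutant melanocytes, and 1.04 and 1.03 in WT and mutant myeloid cells. Only the WT P30 bulge cells had a median under 1, with an interquartile range of 0.925 to 1.04 against 1.08 to 1.17 in WT P56 bulge cells. Across the cells of a group, the share of the large subunit followed that of the small one, with Spearman rho from 0.85 in WT melanocytes to 0.98 in WT P56 bulge cells. Both shares are taken from the same cell and the same total, so part of any such correlation comes with the library.

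Most members were abundant and nearly universal. The median cell expressed 82 members at TPM 1 or more in the bulge and myeloid groups, 79 in WT melanocytes and 81 in mutant melanocytes. In WT P56 and in Mut P56 bulge cells 79 members were detected in every cell, against 67 in WT P30 bulge cells and 17 and 13 in WT and mutant melanocytes. The 10 members with the highest means held 26.7% to 31.4% of the TPM of the family, depending on the group. Since TPM is scaled by transcript length, levels can be set side by side between genes, but with a limit. Reads were dropped or divided among copies, so the level and rank of a member with copies are uncertain.

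Among small subunit genes, Rps27 had the highest mean TPM of all members in each of the 7 groups, from 4067 in mutant melanocytes (SD 2269.8, n = 84) to 10195 in WT P56 bulge cells (SD 4299, n = 83). Rps14, Rps18 and Rps19 were among the 5 highest members of WT P30 bulge cells, with means of 2761, 2878 and 2989.7 TPM. Rps29 ranked second in both myeloid groups, with means of 3957 TPM in WT and 4098 TPM in mutant cells, and its coefficient of variation of 0.283 in mutant myeloid cells was the lowest of any member seen in 50% of those cells or more. Both lay close to its level in WT P56 bulge cells (3741 TPM), although the family as a whole was lower in myeloid cells.

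Among large subunit genes, Rpl13 reached a mean of 5531 TPM in WT P56 bulge cells and Rpl41, which encodes the smallest ribosomal protein, 4835 TPM in Mut P56 bulge cells. Rpl5, which carries 5S ribosomal RNA into the ribosome together with Rpl11, was the lowest of the core members, with means from 44.5 TPM in WT myeloid cells to 112 TPM in Mut P56 bulge cells. Its partner Rpl11 lay at 456 to 1338 TPM. Of the 75-base stretches of Rpl5 and Rpl11, 24.6% and 16.7% occur in other genes. Rpl5 also varied most between cells in the melanocyte and myeloid groups, with a coefficient of variation of 1.53 to 2.64. In mutant myeloid cells its median was 17.8 TPM while the highest cell reached 1023 TPM. Rpl27 lay at 167 to 338 TPM, below its copy Rpl27-ps3, all of whose 75-base stretches occur in Rpl27 and which was listed at 635 to 1759.5 TPM in the same groups, so the level of Rpl27 is uncertain.

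The stalk genes did not keep one ratio. In WT P56 bulge cells the means were 4907 TPM for Rplp0, 6689 TPM for Rplp1 and 2229 TPM for Rplp2. In WT P30 bulge cells they were 3233, 2499 and 770 TPM. Rplp1 thus lay above Rplp0 at P56 and below it at P30, while Rplp2 was the lowest of the 3 in every group.

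Paralogs that can stand in for a core protein were mostly low or absent. Rpl10l, known from the testis, was listed at 0 in every cell. Rpl3l, known from skeletal and heart muscle, was above TPM 1 in 1 WT P56 bulge cell and 1 mutant myeloid cell, and Rpl39l in 2 WT P30 bulge cells and 1 WT melanocyte. These 3 members were the only ones under the detection limit of 10% of cells in every group, so 83 of 86 members entered the comparisons. In contrast, Rpl22l1, Rps27l and Rpl36al were abundant. Rpl22l1 made up a median of 84.8% of the TPM of Rpl22 and Rpl22l1 together in WT P30 bulge cells, 49.7% in WT P56 bulge cells and 67.2% in Mut P56 bulge cells. The interquartile ranges of WT P30 (73.3% to 90.7%) and WT P56 bulge cells (38.2% to 61.1%) did not overlap. Rpl7l1 and Rps19bp1 were rare, with means of 34.4 to 83.4 and 37.6 to 47.4 TPM.

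Mutant and WT bulge cells of the same age were compared to see what differed in skin whose follicles do not all rest. The family was slightly lower in Mut P56 than in WT P56 cells. The median share differed by -2.71 percentage points. Over the alternatives it lay between -3.76 (cells with 2500 to 4000 genes) and -1.92 (cells whose own lineage markers led). Without mitochondrial genes in the total it was -1.94. The median mitochondrial share was 6.85% in Mut P56 and 4.50% in WT P56 cells, and its part in the difference was not tested. Of 83 members, 63 were lower (43.9% of all genes were) and 20 higher, with a median difference of -0.17 on the log2 scale, where values are log2 of TPM scaled to a total of 10000 plus 1 and a difference is one of group means. The median over all 10666 genes measured was 0.01. Members at least 0.5 higher numbered 3, Rps27l, Rpl22l1 and Rps3a1 (3.61% of the 83, against 2.83% of all genes), and 3 were at least 0.5 lower, Rps2, Rplp1 and Rps4x (3.61%, against 2.03% of all genes). Both shares lie near those of all genes, so the shift was small and broad rather than large in many members. Members at least 0.5 away from the family median, here called departing members, numbered 7 (8.43%, against 4.80% of all genes that far from the median gene). Most members are abundant, whereas this scale understates differences of low genes. The shares of all genes, here and in later comparisons, were not matched to the members by level and so are not a like background.

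Rps2, a core protein of the small subunit near the entry of the messenger RNA, stood furthest below the family. The gene lies at chr17:24718116-24721929 on the plus strand, with an H/ACA small nucleolar RNA gene, Snora64, inside it. Rps2 ranged from 376 to 2782 TPM with a median of 1095 in Mut P56 bulge cells, and from 471 to 5594 TPM with a median of 2954 in WT P56 cells. The ranges overlapped, but the interquartile ranges, 891 to 1477 and 2430.2 to 3556 TPM, did not. The difference was -1.27 (SD over cells 0.53 and 0.49), that is -1.10 from the family median. In WT P30 bulge cells the median was 1519 TPM, and in the melanocyte and myeloid groups it lay between 1324 and 1562 TPM. Rps2 was thus high in WT P56 bulge cells together with the rest of the family, and low in Mut P56 cells where the rest of the family was high. By mean TPM, it ranked 20 of 86 members in WT P56 and 57 in Mut P56 cells. Of the 75-base stretches of Rps2, 35.98% occur in other genes, 51 of them in all, and the copy Rps2-ps6 was listed at 41.1 TPM in Mut P56 and 62.7 TPM in WT P56 cells, far below Rps2 itself. Snhg9, which overlaps Rps2 on the other strand, was listed at 8.33 and 6.99 TPM.

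Rps27l, a paralog of Rps27 known as a target of p53, stood furthest above the family. It lies at chr9:66946086-66949516 on the plus strand. Its level ranged from 288 to 3146 TPM with a median of 1174 in Mut P56 bulge cells and from 0 to 1810.3 TPM with a median of 651 in WT P56 cells. The interquartile ranges, 925 to 1596 and 415 to 864 TPM, did not overlap, and the difference was 0.92 (SD 0.61 and 0.88). In WT P30 cells the median was 1129 TPM, close to that of Mut P56 cells. Rpl22l1 (means 1364 and 905 TPM, difference 0.59) and Rps3a1 (2158 and 1448 TPM, 0.56) were also higher in Mut P56 than in WT P56 cells, and 60.2% of the 75-base stretches of Rps3a1 are shared with other genes. Rpl15 (1509 and 1121 TPM) and Rpl7l1 (83.4 and 45.2 TPM) completed the 5 members highest above the family, at 0.38 and 0.35.

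Below the family, after Rps2, came the stalk genes Rplp1 (4618 and 6689 TPM, difference -0.58) and Rplp0 (3511 and 4907 TPM, -0.50), with Rps4x (2480.1 and 3623 TPM, -0.56). Rps4x encodes a small subunit protein from the X chromosome. Rplp1 and Rplp0 were lower while the third stalk gene, Rplp2, was at 2216 and 2229 TPM. Stress and division genes differed as well. The 20 immediate early genes on the list, which respond to signals and to tissue dissociation, were all lower in Mut P56 cells, with a median of -1.77. Of 30 G2/M genes, 29 were higher, with a median of 0.17 (43.9% of all genes were lower and 56.1% higher). A gene entered a comparison when either group passed the detection limit. Only 8 of the G2/M genes entered WT P56 against WT P30 bulge cells, so most entered here through Mut P56 cells alone. For those genes the filter itself favours a higher level in Mut P56 cells, so the count of 29 says little about direction. Within WT P56 bulge cells, the ribosomal protein share had a Spearman rho of -0.32 with the mean of the immediate early genes (n = 83 cells), and within Mut P56 cells of -0.19 (n = 89). The part of these genes in the difference was not tested.

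WT bulge cells at P56 and P30 were compared to describe rest against growth. Here most members differed in the same direction. The median share differed by 7.01 percentage points, and 75 of 83 members were higher at P56 (71.1% of all genes were) and 8 lower. The family median was 0.73, with the middle 50% of members between 0.44 and 0.98, against a median of 0.05 over all 9856 genes measured. At least 0.5 higher were 56 members (67.5%, against 3.24% of all genes), and at least 0.5 lower was 1, Rps27l (1.20%, against 2.14% of all genes). Many of those other genes are low and can hardly reach 0.5 on this scale, so part of that contrast comes with the level of the members. The large subunit and stalk had a median of 0.82 and the small subunit of 0.65. The number of genes detected, 3191.5 at P30 and 4271 at P56, the mitochondrial share, a median of 8.40% at P30 and 4.50% at P56, and the TPM total that the tables cover, a median of 808291 at P30 and 889092 at P56, also differed between the 2 groups. Their part in the difference was not tested. In cells with 2500 to 4000 genes, 29 at P56 and 69 at P30, the family median was 0.80.

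Members spread widely around the family median in that comparison, and 21 of 83 departed from it by at least 0.5 (25.3%, against 5.22% of all genes from the median gene). The 5 members highest above it were Rpl22 (means 834 and 217 TPM at P56 and P30, difference 1.54), Rps12 (1797 and 596 TPM, 1.45), Rpsa (1601 and 540 TPM, 1.42), Rps21 (1244 and 397 TPM, 1.39) and Rplp2 (2229 and 770 TPM, 1.35). Rpsa is the small subunit protein also known as the laminin receptor. Lowest were Rps27l (668 and 1280.4 TPM, -1.02), Rpl22l1 (905 and 1117 TPM, -0.37), Rps3a1 (1448 and 1685 TPM, -0.29), Rpl5 (69.5 and 96.7 TPM, -0.25) and Rps19bp1 (37.6 and 41.3 TPM, -0.09). Rpl22 and its paralog Rpl22l1 thus lay on opposite sides of zero. Rpl22 is known to repress Rpl22l1 in mouse cells, and the part of such repression in these levels was not tested. By mean TPM, both genes were higher in Mut P56 than in WT P30 bulge cells.

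Against WT P30 bulge cells, Mut P56 cells also had a higher share, by 4.30 percentage points. Of 83 members, 77 were higher (75.3% of all genes were) and 6 lower, with a median of 0.59 against 0.06 over 10165 genes. At least 0.5 higher were 46 members (55.4%, against 4.24% of all genes), and none was at least 0.5 lower (against 1.98%). Departing members numbered 19 (22.9%, against 5.66% of all genes from the median gene). Highest above the family were Rplp2 (2216 and 770 TPM, 1.36), Rpl28 (871 and 276 TPM, 1.35), Rpl15 (1509 and 515 TPM, 1.31), Rpl7a (1463 and 541 TPM, 1.25) and Rpl22 (646 and 217 TPM, 1.20). Of the 75-base stretches of Gm10020, a copy of Rpl15, 77.5% occur in Rpl15. Gm10020 held a median of 24.7% of the TPM of the pair in Mut P56 and 57.2% in WT P30 cells. The part of read assignment in the difference of Rpl15 was not tested. Lowest were Rps2 (1224 and 1543 TPM, -0.41), Rps27l (1269 and 1280.4 TPM, -0.11), Rps20 (968 and 1049 TPM, -0.09), Rpl35 (700 and 685 TPM, -0.03) and Rps19bp1 (39.8 and 41.3 TPM, -0.03). The bulge comparisons share groups, so they are not independent of each other. Set side by side, the differences of Rps27l were 0.92, -0.11 and -1.02 for Mut P56 against WT P56, Mut P56 against WT P30 and WT P56 against WT P30, those of Rpl22 -0.34, 1.20 and 1.54, and those of Rps2 -1.27, -0.41 and 0.86. For Rpl22, Mut P56 cells lay near WT P56 cells, and for Rps27l near WT P30 cells.

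**Figure D2:**
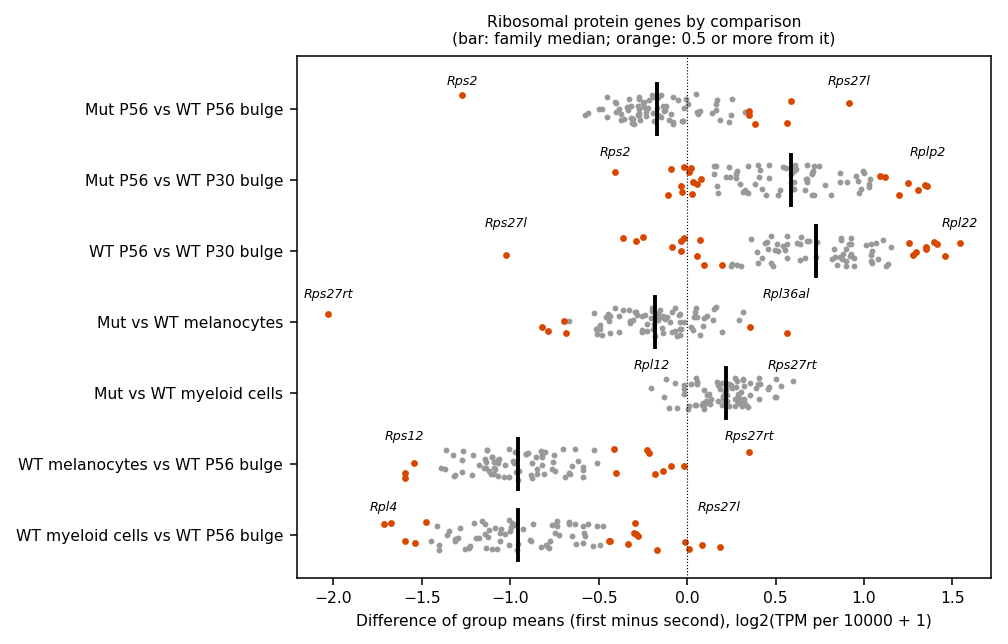
Difference of group means, first minus second group (x axis, log2 of TPM scaled to 10000 plus 1), for the 83 measured members in the 7 comparisons (y axis). Each point is 1 gene, the bar is the family median, orange points lie at least 0.5 from it, and the outermost member on each side is named; the median is 0.73 for WT P56 against WT P30 bulge cells and -0.96 for both WT lineages against WT P56 bulge cells.

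Mutant melanocytes, which carry the driven transgene, were compared with WT melanocytes. The family was slightly lower in the mutant cells. The share differed by -1.98 percentage points, and 65 of 83 members were lower (39.3% of all genes were) and 18 higher, with a median of -0.18 against 0.03 over 8305 genes. At least 0.5 lower were 9 members (10.8%, against 1.42% of all genes), and 1 was at least 0.5 higher, Rpl36al (1.20%, against 2.76% of all genes). Departing members numbered 7 (8.43%, against 3.91% of all genes from the median gene). WT melanocytes had 2233 genes above 0 in the median cell and mutant melanocytes 2873, and the share had a rho of 0.11 and 0.31 with the number of genes within these groups (n = 81 and 84 cells).

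After Rps27rt, described below with the other copies, the members lowest against the family in mutant melanocytes were Rps27 (4067 and 6276 TPM, -0.82), Rplp1 (2438 and 4112 TPM, -0.79), Rpl36 (1478 and 2358 TPM, -0.70) and Rps14 (1563 and 2402 TPM, -0.69). Rps27 ranged from 160.4 to 13031 TPM in mutant cells and from 1113 to 11568 TPM in WT cells, so the WT range lay inside the mutant one. Such ranges rest on the most extreme cells and do not describe the shift of the means. The stalk gene Rplp1 had medians of 2311 and 3879 TPM, with interquartile ranges of 1748 to 3159 and 2988 to 5382 TPM. Highest against the family were Rpl36al (463 and 330.1 TPM, 0.56), Rps13 (890 and 689 TPM, 0.35), Rpl10 (2322 and 1913 TPM, 0.31), Rpl41 (2393 and 1905 TPM, 0.29) and Rps6 (1322 and 1133 TPM, 0.20). Rpl36al was detected in 80.95% of mutant and 59.3% of WT melanocytes, and its SD over cells was 1.30 and 1.48, both greater than its difference. Rps6 is the ribosomal protein that S6 kinase phosphorylates on growth signalling.

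Mutant and WT myeloid cells differed little in single members. The share was 1.98 percentage points higher in mutant cells, and 74 of 83 members were higher (50.5% of all genes were) and 9 lower, with a median of 0.22 against 0.00 over 7683 genes. At least 0.5 higher were 3 members, Rps27rt, Rpl4 and Rps4x (3.61%, against 0.573% of all genes), none was at least 0.5 lower (against 0.742%), and none departed from the family median by 0.5 (against 1.33% of all genes from the median gene). The 5 highest were Rps27rt (752 and 472 TPM, 0.60), Rpl4 (1362 and 989 TPM, 0.53), Rps4x (1604 and 1197 TPM, 0.50), Rps27a (2207 and 1615 TPM, 0.50) and Rps10 (946 and 686 TPM, 0.50). Rps27a is made as a fusion with ubiquitin. Among the lowest were Rpl12 (182 and 211 TPM, -0.20), Rpl22l1 (522 and 541 TPM, -0.13), Rpl7l1 (34.4 and 44.4 TPM, -0.10) and Rpl41 (2929 and 3123 TPM, -0.07). T or NK cell genes led in 4 WT and 7 mutant cells of these groups. Without the cells in which another marker set led, the share difference was 1.05 percentage points in place of 1.98.

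WT melanocytes and WT myeloid cells both gave a smaller share of their transcripts to the family than WT P56 bulge cells. Against WT P56 bulge cells, the share differed by -8.70 percentage points in WT melanocytes and by -9.33 in WT myeloid cells, and the family medians were -0.96 in both, against -0.03 over 10059 genes and -0.08 over 10527 genes. In melanocytes 82 members were lower (60.97% of all genes were) and 1 higher, of which 74 were at least 0.5 lower (89.2%, against 6.67% of all genes) and none at least 0.5 higher (against 3.11%). In myeloid cells 80 were lower (74.2% of all genes were) and 3 higher, of which 69 were at least 0.5 lower (83.1%, against 8.14%) and none at least 0.5 higher (against 4.09%). Departing members numbered 12 in melanocytes (14.5%, against 9.58% of all genes from the median gene) and 17 in myeloid cells (20.5%, against 11.4%). The median cell had fewer genes above 0 in both lineages than in WT P56 bulge cells (2233 and 2946 against 4271).

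The lineages differed in which members lay lowest. In WT melanocytes these were Rps12 (677 against 1797 TPM, -1.60), Rpl36al (330.1 against 782 TPM, -1.59), Rpl11 (456 against 1338 TPM, -1.55), Rpl10a (650.1 against 1564 TPM, -1.39) and Rps16 (983 against 2617 TPM, -1.37). In WT myeloid cells they included Rpl4 (989 against 3302 TPM, -1.71), Rps4x (1197 against 3623 TPM, -1.67), Rplp0 (1744 against 4907 TPM, -1.54) and Rpl10a (550.0 against 1564 TPM, -1.48). Closest to or above bulge level in myeloid cells were Rps27l (948 against 668 TPM, 0.18), Rps29 (3957 against 3741 TPM, 0.08), Rpl7l1 (44.4 against 45.2 TPM, 0.01), Rps19bp1 (38.3 against 37.6 TPM, -0.01) and Rpl21 (693 against 805 TPM, -0.17). In melanocytes they were Rps27rt (1044 against 802 TPM, 0.35), Rps19bp1 (45.3 against 37.6 TPM, -0.02), Rpl21 (831 against 805 TPM, -0.09), Rpl7l1 (34.7 against 45.2 TPM, -0.14) and Rps3a1 (1349 against 1448 TPM, -0.18). Rps19bp1 and Rpl7l1 are low, where this scale understates a difference. The 2 comparisons share the WT P56 bulge cells.

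Over all 7 groups, the members that kept least to a common pattern were found by removing each member's median and each group's median from the mean log2 levels of the 83 members seen at TPM 1 or more in 25% of cells or more of any group. The median over members of the remaining range was 0.68, and 13 members had a range of at least 1. Rpl13a kept closest, with a range of 0.17. The widest ranges included those of Rps27rt (1.81), Rps27l (1.79), Rpl36al (1.24), Rpl22l1 (1.24), Rps2 (1.22), Rps20 (1.19), Rps19bp1 (1.15), Rpl7l1 (1.11), Rps3a1 (1.05), Rpl5 (1.02) and Rplp2 (1.01). For Rps2 the range came from 1 group, Mut P56 bulge cells at -1.01, since the other 6 lay between -0.08 and 0.20. Rps27l was lowest in WT P56 bulge cells (-1.07) and highest in WT P30 bulge cells (0.71). Rpl36al was lowest in WT melanocytes (-1.04), Rps20 highest in WT P30 bulge cells (0.71) and Rplp2 lowest in WT P30 bulge cells (-0.61). Rps19bp1, Rpl7l1 and Rpl5 are rare transcripts and were all lowest in WT P56 bulge cells, where the family was highest. At such low levels this scale understates a difference, so these members can hardly follow a shift of the family. Their ranges therefore do not show that they kept apart from it.

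**Figure D3:**
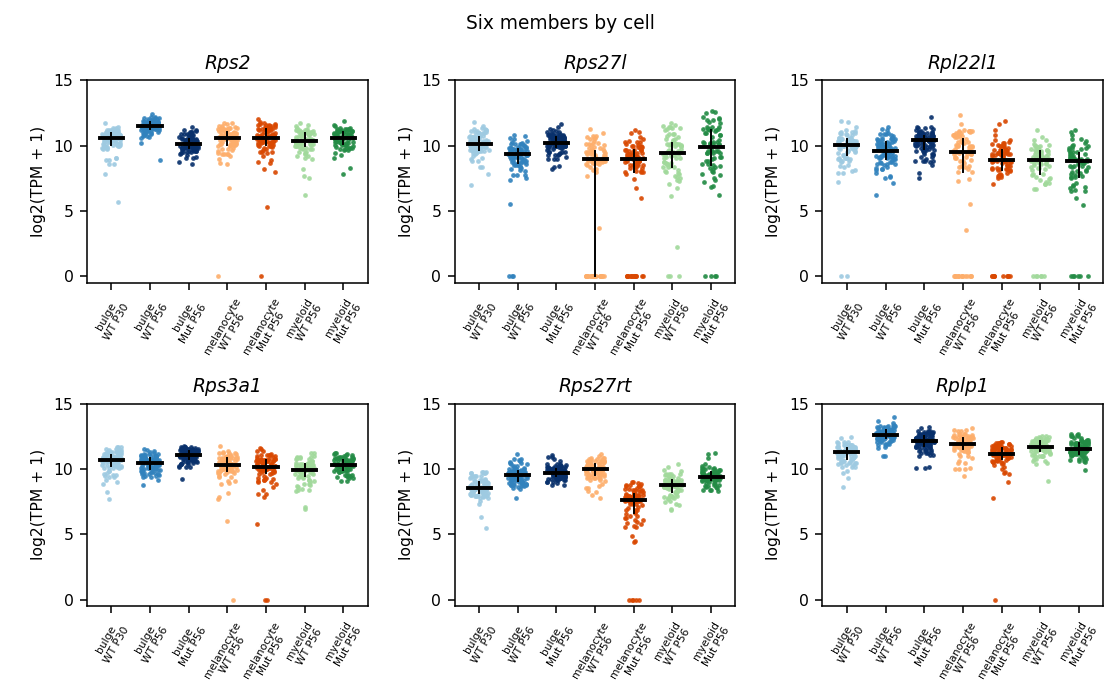
Level of 6 members as log2(TPM + 1) (y axes) in each cell of the 7 groups (x axes), with the group median as a thick bar and the quartiles as a vertical line. Rps2 is low in Mut P56 against WT P56 bulge cells (medians 1095 and 2954 TPM), Rps27l and Rpl22l1 are spread over cells in all groups, and Rps27rt is low in mutant melanocytes.

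Rps27rt had the widest range, and it is a copy. The gene lies at chr9:114982366-114982739 on the minus strand, inside Osbpl10, which runs on the other strand, had a mean of 0.0236 TPM in WT melanocytes and was listed at 0 in every cell of the other 6 groups. In WT melanocytes it ranged from 224 to 2290.0 TPM with a median of 1029, and in mutant melanocytes from 0 to 501 TPM with a median of 199. The interquartile ranges, 726 to 1363 and 97.1 to 271 TPM, did not overlap, and the difference of -2.03 (SD 0.72 in mutant and 0.62 in WT cells) was the greatest of any member in the 7 comparisons. As a share of the TPM of Rps27 and Rps27rt together, it had a median of 14.3% in WT and 4.78% in mutant melanocytes, 4.84%, 7.12% and 9.09% in WT P30, WT P56 and Mut P56 bulge cells, and 7.10% and 9.21% in WT and mutant myeloid cells.

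The 14 copy rows outside the family were not alike. As a share of the pair of copy and member, 8 of them had their highest median in WT melanocytes, and Gm10036, Gm10020 and Rps18-ps3 in a bulge group. Gm28037 had a median of 0 in every group. In WT melanocytes 11 copy rows were higher than in mutant melanocytes, while 3 had a median of 0 in both. Rpl23a-ps3, Rpl9-ps6 and Rpl10-ps3 are described further, chosen after their values were seen. Rpl23a-ps3, 80.96% of whose 75-base stretches occur in Rpl23a, made up a median of 27.7% of that pair in WT and 3.70% in mutant melanocytes. Rpl9-ps6 made up 16.7% and 4.05% of its pair with Rpl9, and Rpl10-ps3 32.3% and 11.1% of its pair with Rpl10. In the bulge the median for Rpl10-ps3 was 8.78% in WT P30, 17.7% in WT P56 and 22.96% in Mut P56 cells. Rps27rt and these 3 copies each had its highest median share in WT melanocytes, and a lower one in WT P30 bulge cells and mutant melanocytes than in the other groups, except that WT myeloid cells lay below WT P30 bulge cells for Rpl23a-ps3 (9.84% and 11.7%). Rps27l, which shares no stretch with Rps27, did not show this order, with 7.05% in WT and 11.1% in mutant melanocytes. All names of the -ps form together held a median of 0.344% of TPM in WT and 0.123% in mutant melanocytes, and 0.145%, 0.347% and 0.386% in WT P30, WT P56 and Mut P56 bulge cells. The part of read assignment in the level of Rps27rt was not tested.

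**Figure D4:**
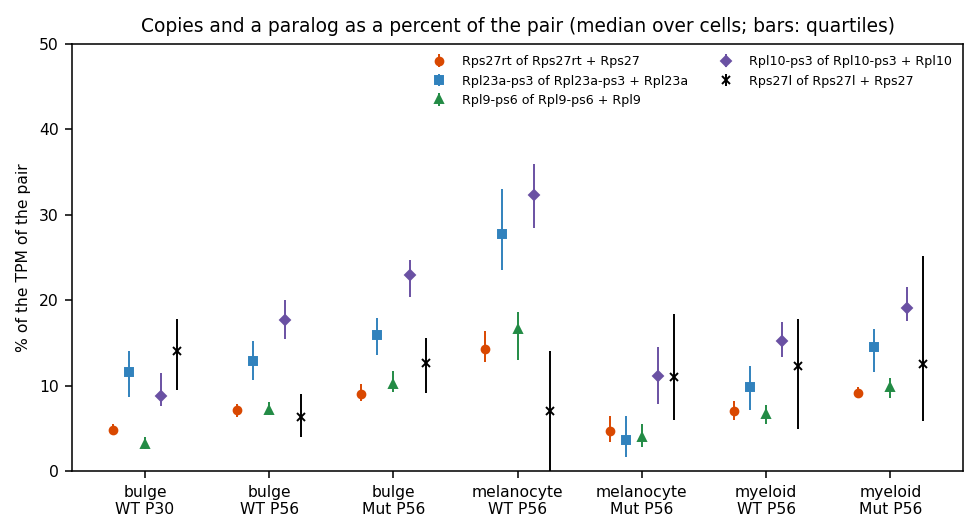
Median over cells of the percent of a pair's TPM that the copy or paralog holds (y axis) in the 7 groups (x axis), with bars for the quartiles. The copies Rps27rt, Rpl23a-ps3, Rpl9-ps6 and Rpl10-ps3 are highest in WT melanocytes, while the paralog Rps27l is not.

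Genes that work with the ribosome were listed apart from the family, and they differed with it only in part. In WT P56 against WT P30 bulge cells, the elongation factors had a median of 0.27, with 6 of 8 measured genes higher (71.1% of all genes were) and 3 at least 0.5 higher (against 3.24% of all genes). Eef1a1, which delivers aminoacyl-tRNA, was at 7925 and 4300.4 TPM (0.83), and Eef2, which moves the ribosome along, at 789 and 279 TPM (1.25). Fau, which encodes small subunit protein eS30 fused to a ubiquitin-like protein and is a ribosomal gene outside the name rule, was at 2564 and 1452 TPM (0.69). By contrast, the 50 genes of ribosome assembly and the nucleolus had a median of 0.02, with Npm1 at 571 and 951 TPM (-0.68), and the 77 mitochondrial ribosomal protein genes a median of -0.01, against 0.05 over all genes. The cytosolic family thus lay above the assembly and mitochondrial lists in that comparison.

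In Mut P56 against WT P56 bulge cells, the assembly genes lay near the median of all genes (0.01), above the family (-0.17). Of the assembly and nucleolar genes, 33 of 50 were higher (56.1% of all genes were), with a median of 0.03, with Npm1 at 968 and 571 TPM (0.65) and Nhp2, a core protein of H/ACA particles, at 244 and 129 TPM (0.51). Of the genes for mitochondrial ribosomal proteins, 63 of 77 were higher, also against 56.1% of all genes, with a median of 0.15, with Mrps33 at 219 and 80.3 TPM (0.81). Eef1a1 (6079.7 and 7925 TPM, -0.40) and Eef2 (582 and 789 TPM, -0.44) were lower along with the family. The elongation factors as a list were not, with a median of 0.03 and with 4 of 8 measured genes higher and 4 lower. Eef1e1 (64.3 and 28.8 TPM, 0.29) and Eif5a (1532 and 1243 TPM, 0.15) were among the higher ones. Eif4ebp1, which encodes an mTORC1-regulated repressor of translation initiation, was at 254 and 69.4 TPM (1.02), while Myc, a driver of ribosome synthesis that is also an immediate early gene, was at 78.04 and 343 TPM (-0.94). The 20 growth regulators as a list had a median of 0.02.

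In the other comparisons the lists followed the family in part. In mutant against WT melanocytes the medians were -0.09 for the elongation factors, 0.01 for the assembly genes and 0.14 for the mitochondrial list, of which 62 of 76 genes were higher, against 60.7% of all genes. In mutant against WT myeloid cells, Eef1b2 (815 and 623 TPM, 0.54) and Eef1a1 (4588 and 3736 TPM, 0.34) were higher with the family, while Eef1d (108 and 146 TPM, -0.23) was lower. The elongation factors as a list had a median of 0.11, with 5 of 7 measured genes higher (50.5% of all genes were). The assembly genes had a median of -0.03. Against WT P56 bulge cells, all 8 elongation factors were lower in WT melanocytes (median -0.62, with 60.97% of all genes lower) and in WT myeloid cells (median -1.01, with 74.2% of all genes lower). Most assembly and mitochondrial list genes were lower too. Of the 50 assembly genes, 44 were lower in WT melanocytes and 47 in WT myeloid cells, with medians of -0.09 and -0.15. Of the 77 genes of the mitochondrial list, 72 and 75 were lower, with medians of -0.20 and -0.24. Where list genes are low, this scale understates a difference, so these small medians do not show that the lists differed little.

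**Figure D5:**
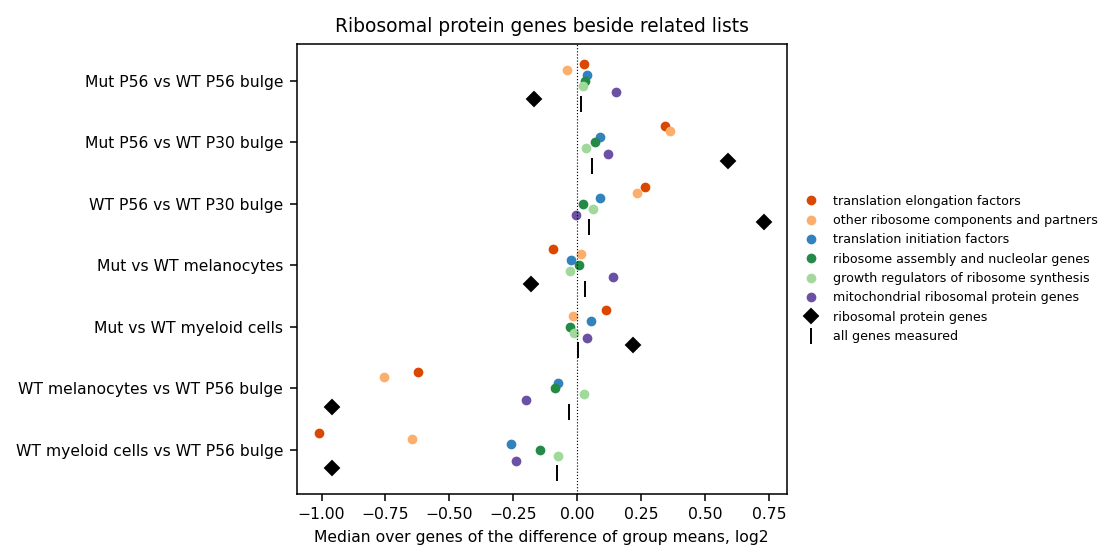
Median over genes of the difference of group means (x axis, log2) for the ribosomal protein genes (black diamonds), 6 related lists (coloured points) and all measured genes (ticks) in the 7 comparisons (y axis). Elongation factors and ribosome partners lie nearest to the family where it differs most, and assembly genes stay between -0.15 and 0.07.

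From cell to cell, most members followed each other. In every group 81 members were seen in 50% of cells or more, and each was set against the mean of the other 80 over the cells of a group. The median over the 7 groups of Spearman rho was at least 0.3 for 77 members, with 0.53 for the middle member, against 27 of 576 other genes and 0.03 for the middle gene when these were set against the mean of the members. Rpl32 followed the family most closely (0.71) and Rps27l least (0.12), before Rpl22l1 (0.24), Rpl36al (0.26) and Rpl5 (0.29). The paralogs with wide ranges between groups were also among the ones least tied to the family within a group. Of the 10 non-members with the highest median rho, 4 were copies of members, Gm2000 (0.64, a copy of Rpl35), Gm10076 (0.56, of Rpl41), Rpl27-ps3 (0.53) and Rps12-ps3 (0.48). Eef1a1 (0.59), Fau (0.51), Gm10073, Gm8730 and Gm26619 were also among the 10. Within groups, the share had rho of 0.36 to 0.61 with the mean of the elongation factors and of 0.07 to 0.32 with that of the assembly genes. All of these share library, cell and scaling, and with the number of genes above 0 the share had rho between -0.17 and 0.31. With the TPM total that the tables cover, rho was negative in all 7 groups, from -0.59 in WT P56 bulge cells and -0.45 in mutant myeloid cells to -0.13 in mutant melanocytes. That total is the divisor of the share, which itself favours a negative rho.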

How the data were processed

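Single cells were caught on Fluidigm C1 chips, and their amplified cDNA was read as 75-base pairs. STAR (2.4.2 in the submitters' notes) and RSEM were run by the authors on mm10 (GRCm38), and the deposited values are TPM, although the methods name FPKM. STAR dropped reads with many matches and RSEM divided the others among gene copies, which bears on members with copies. The authors left out chambers seen to hold several cells, and no doublet caller was run here. Strand was not marked, so overlapping antisense genes cannot be told apart. The sort of the single cells before capture was not found in the labels or methods.

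Of 31002 identifiers, 38 symbols had several, which were averaged to 30959 symbols. Up to 27 symbols had become dates in some tables, and the WT P30 symbols were used. The study's limits for bulge cells were applied (TPM sum of 750000 or more, mitochondrial share up to 20%, 2000 to 7000 genes), and for other lineages the lower limit was 1000 genes. This kept 566 of 605 cells and left out 39. In the WT myeloid cells 1 column matched no label and was not used, and mutant myeloid columns, which carry no well, entered by group.

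Differences are of group means of log2(TPM scaled to 10000 + 1), which understates changes of low genes. Shares over all genes were not matched to the members by level. Each comparison took genes at TPM 1 or more in 10% of cells of one group or the other. The 5 members furthest above and below the family median (25% of cells or more), the 12 with the widest residual range, the 5 highest and lowest by mean TPM, paralog pairs and stalk genes are named, with up to 4 genes per related list. Rpl13a, Rpl32, Rpl27, Rpl9, Rpl23a, Gm10020 and the -ps copies were picked after their values were seen. Copies are the 14 rows with 50% or more of their 75-base stretches in a member's GENCODE vM21 transcripts. Members, lists and alternatives were chosen with earlier results of these data known. A few genes that the rule names are not reported here. With 1 sample per group no test was made. The log scale and the difference of group means were first run on simulated cells with known changes, and the other steps were not. Python 3.11.15, NumPy 2.4.6, pandas 2.3.3 and matplotlib 3.10.9 were used.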

Additional observations from a re-analysis of the deposited data

Results flagged for a closer look

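The difference between mutant and WT cells in the share of ribosomal protein transcripts took opposite signs in different lineages. It was -2.71 percentage points in P56 bulge cells, -1.98 in melanocytes and 1.98 in myeloid cells. With 1 sample per group, the difference between lineages was not tested.

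Of single members, Rps27rt and Rps4x differed by at least 0.5 on the log2 scale in opposite directions between lineages. Mutant minus WT, Rps27rt was at 0.19 in P56 bulge cells, -2.03 in melanocytes and 0.60 in myeloid cells, and Rps4x at -0.56, -0.25 and 0.50. These differences between lineages were not tested either, and Rps27rt shares 90.3% of its 75-base stretches with other genes.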

How the results depend on the processing

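No paired analysis was possible because the labels name no animal and each group is 1 sample, so that well numbers pair no cells. Direction was kept in every share and family median difference under all alternatives run, 70 and 77 values. Family medians lay between -0.25 and -0.15 for mutant against WT P56 bulge cells, 0.68 and 0.96 for WT P56 against WT P30, -0.26 and -0.13 for melanocytes, and 0.18 and 0.29 for myeloid cells. The share difference of mutant and WT myeloid cells was 1.23 percentage points with at least 2000 genes per cell and 1.05 in cells whose own markers led, against 1.98. On log2(TPM + 1) without scaling, departing members numbered 21 in place of 7 in mutant against WT melanocytes and 19 in place of 12 in WT melanocytes against WT P56 bulge cells. In myeloid cells they numbered 4 on that scale, 1 with log2 ratios of mean TPM and 1 in cells with 2500 to 4000 genes, in place of 0. The cause was not tested. Of 77 counts of departing members 72 stayed within 1.5 times. Rps2 in mutant against WT P56 bulge cells lay between -1.44 and -1.23, Rps27l between 0.72 and 1.28 and Rps27rt in melanocytes between -2.86 and -1.92 over 8 alternatives each. The 2 alternatives on copies and 1 that left out Rps19bp1, Rpl7l1 and Rps27rt were added after seeing the data and moved no value by more than 1.5 times. TPM keeps no depth, so the precision of a low value in a cell is unknown.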

Other observations

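A row that copies a ribosomal protein gene differed by cell type while the gene itself was expressed in all. Gm10020, a processed pseudogene of Rpl15 in GENCODE vM21, 77.5% of whose 75-base stretches occur in Rpl15, had a mean of 657 TPM in WT P30, 462 TPM in WT P56 and 486 TPM in mutant bulge cells. In WT and mutant melanocytes it was at 6.61 and 0.295 TPM, and in WT and mutant myeloid cells at 1.67 and 3.36 TPM. Rpl15 itself was at 1121 TPM in WT P56 bulge cells, 839 TPM in WT melanocytes and 669 TPM in WT myeloid cells. In WT P30 bulge cells Rpl15 was at 515 TPM, below Gm10020. The part of read assignment in the levels of Rpl15 and Gm10020 was not tested. Gm10020 was picked out after its values were seen.

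Rps27l was spread most widely in mutant myeloid cells. It ranged from 0 to 6317 TPM with quartiles of 365 and 2381 TPM, against 0 to 3385 TPM with quartiles of 329 and 1168 TPM in WT myeloid cells. Its coefficient of variation was 1.02 and 0.886, while in bulge cells it lay between 0.426 and 0.55.

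Transcript length had little relation to the differences of the members. Over the 83 members, Spearman rho between the difference and the longest annotated transcript was between -0.21 and 0.17 in the 7 comparisons. Between the mean level in a group and the share of 75-base stretches held in common with other genes, rho over the 86 members was 0.08 to 0.18.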
